A study of Mus musculus with 12 samples.

Results

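Fgf21, Gdf15, Klb and Fgfr1 are 4 of the 14159 genes listed in the RNA-seq data of mouse inguinal white adipose tissue (iWAT), and they were chosen by symbol. Atf4AKO mice carry floxed Atf4 alleles and the Adipoq-Cre transgene, so that the deletion is restricted to cells in which the adiponectin promoter is active. Their floxed littermates without Cre are called Atf4WT, and both genotypes share the floxed alleles and the C57BL/6 background. Whole iWAT was taken at room temperature (RT) or after 24 h of cold exposure, with 3 biological replicates, numbered 0, 1 and 2, in each of the 4 groups. The age and the sex of these mice are not given in the sources used here. Whole tissue also holds stromal, endothelial and immune cells, in which Atf4 is intact.

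FGF21 is a hormone of the fibroblast growth factor family that circulates because it binds heparan sulfate only weakly. It signals through a complex of an FGF receptor tyrosine kinase, mostly FGFR1 in fat, with the coreceptor β-Klotho, the product of Klb, and the complex activates the RAS to ERK cascade. GDF15 is a distant member of the TGF-β family whose receptor, GFRAL with the kinase RET, acts in the hindbrain. Both hormone genes are known targets of ATF4, the transcription factor of the integrated stress response, and Fgf21 is also known as a cold-induced gene of thermogenic fat.

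In these data cold exposure raised Fgf21 and Klb and lowered Fgfr1 in both genotypes. Gdf15 was low and varied widely between libraries, and its difference with cold passed the test only when the 2 genotypes were averaged. For none of the 4 genes did the test separate Atf4AKO from Atf4WT iWAT at either temperature, and the intervals of the 2 hormone genes were wide. The reads behind these statements differ greatly. Fgf21 had 3 to 10 reads per library at RT and 14 to 72 after cold exposure, Gdf15 had 6 to 11 and 8 to 64, Klb had 1383 to 3368 over all libraries and Fgfr1 had 4095 to 9759.

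Fgf21 (NM_020013) is on chromosome 7, bases 45613886 to 45615490 of mm10, minus strand. Gdf15 (NM_001330687) is on chromosome 8, bases 70629393 to 70632456, minus strand. Klb (NM_031180) is on chromosome 5, bases 65348314 to 65384007, plus strand. Fgfr1 (NM_001079909) is on chromosome 8, bases 25513654 to 25575718, plus strand, and 7423 bases of it overlap the antisense gene Gm16159, which is not among the listed genes. The libraries were strand-specific, but the strand setting of the counting is not given in the sources used here, so reads of Fgfr1 and of this antisense gene cannot be told apart. The values are per gene, and the splice forms of Fgfr1, of which the c form is the one that pairs with β-Klotho, are not separated.

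The 250 bases before the start of Fgf21 and of Gdf15 are shown because both genes are known ATF4 targets. They were taken from RefSeq promoter windows of GRCm38.p6, and capitals mark a match to the C/EBP-ATF response element (CARE), searched as TGATGNAAN on both strands. For Gdf15, which has 2 annotated starts, the window of the upstream start is shown.

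Fgf21, chr7:45615491-45615740, minus strand: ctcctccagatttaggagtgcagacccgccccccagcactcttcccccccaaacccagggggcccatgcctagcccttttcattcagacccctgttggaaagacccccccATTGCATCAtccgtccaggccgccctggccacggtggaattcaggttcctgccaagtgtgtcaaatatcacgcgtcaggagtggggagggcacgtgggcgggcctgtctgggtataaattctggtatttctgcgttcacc

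Gdf15, chr8:70632457-70632706, minus strand: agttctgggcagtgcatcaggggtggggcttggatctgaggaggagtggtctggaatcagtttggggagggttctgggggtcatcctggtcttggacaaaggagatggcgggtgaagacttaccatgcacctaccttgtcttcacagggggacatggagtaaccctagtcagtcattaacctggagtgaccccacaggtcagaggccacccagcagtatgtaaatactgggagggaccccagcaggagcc

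The Fgf21 window held 1 CARE match, in the reverse orientation, 140 to 132 bases before the start. A CARE match is found in 3.44% of 32851 promoter windows of this length. The same window held a TATA box (TATAAA, in 12.4% of windows) 28 to 23 bases before the start and an E-box (CACGTG, in 6.02% of windows) 50 to 45 bases before it. Neither window of Gdf15 and not that of Klb held a CARE match, and an E-box lay 83 to 78 bases before the downstream start of Gdf15. A cAMP response element (TGACGTCA, in 1.55% of windows) and a PPAR element (AGGTCA repeated after 1 base, in 0.0335%) were found in none of these 4 windows. These are matches of letters and were not tested as binding sites.

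The listed genes held 25719476 to 29105147 reads in each library. Atf4, the deleted gene, had 4815 ± 791 normalized counts (SD, n = 3) in Atf4WT and 1568 ± 87.9 in Atf4AKO iWAT at RT, and 6970 ± 1054 and 1182 ± 395 after cold exposure, without overlap between the genotypes at either temperature (limma adjusted p = 0.0762 at RT and 0.000644 after cold exposure). All 12 white adipocyte markers were listed, and their summed level was between 1109851 and 1678545 normalized counts in every library. Skeletal muscle markers, of which 9 of 12 were listed, summed to 139495.5 normalized counts in Atf4WT RT replicate 2 and 46377 in Atf4WT cold replicate 0, against at most 4935 in the other 10 libraries. B cell markers (13 of 14 listed) and T cell markers (19 of 19 listed) were highest in Atf4WT cold replicates 1 and 2. The T cell markers summed to 10722 and 12543 there and to 1633 in replicate 0 of that group. They summed to 482 to 1345 in Atf4WT RT, 617 to 1521 in Atf4AKO RT and 347 to 852 in Atf4AKO cold. The B cell markers summed to 7591, 11775 and 18160 in Atf4WT cold replicates 0, 1 and 2, and to 3081 to 7952 in Atf4WT RT. With cold in Atf4WT iWAT limma called 11 of the 13 B cell markers and 18 of the 19 T cell markers higher, and edgeR 2 and 18. Of all 13404 tested genes, limma called 2273 and edgeR 2181 higher there. In Atf4AKO iWAT limma called 0 of the 13 and 0 of the 19, where 25.9% of tested genes were called. The part of muscle or lymphocytes in the values below was not tested, other than by the fits named beside them. In whole tissue, fewer cells of a type and less RNA per cell cannot be told apart.

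**Figure D1:**
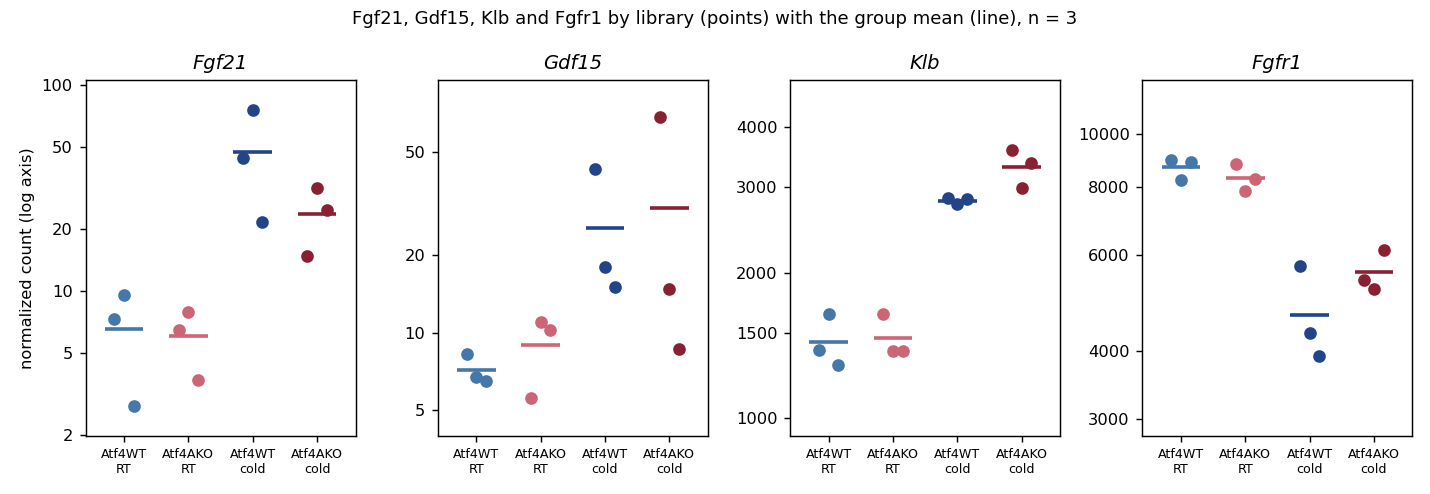
Normalized counts of Fgf21, Gdf15, Klb and Fgfr1 on log axes in the 12 libraries (points) of the 4 groups, with the mean of each group (line, n = 3). After cold exposure Fgf21 and Klb lay above and Fgfr1 below all RT libraries in both genotypes, while Gdf15 of Atf4AKO iWAT overlapped between the temperatures.

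Fgf21, the hormone gene of the receptor complex, was low at RT. Its normalized counts there were 7.35, 9.62 and 2.78 in Atf4WT replicates 0, 1 and 2, and 6.51, 7.97 and 3.71 in the Atf4AKO replicates. After cold exposure they were 44.2, 76.0 and 21.7 in Atf4WT and 14.9, 31.7 and 24.7 in Atf4AKO iWAT. In each genotype all cold-exposed libraries lay above all RT libraries, and the cold-exposed genotypes overlapped. The lowest RT value, in Atf4WT replicate 2, rests on 3 reads, for which the exact Poisson interval at 95% is 0.619 to 8.77 reads and covers counting error only. That library is the one with the most muscle RNA.

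The group means of Fgf21 were 6.06 ± 2.16 (SD, n = 3) in Atf4AKO RT, 6.59 ± 3.48 in Atf4WT RT, 23.8 ± 8.47 in Atf4AKO cold and 47.3 ± 27.3 in Atf4WT cold. Cold exposure raised Fgf21 by 2.63 on the log2 scale of normalized count + 1 in Atf4WT iWAT (standard error 0.54, 95% interval 1.43 to 3.82, limma with Benjamini-Hochberg adjustment over all tested genes, adjusted p = 0.00457). In Atf4AKO iWAT the rise was 1.80 (95% interval 0.61 to 2.99, limma adjusted p = 0.0318). Without Atf4AKO RT replicate 0 or 2, or cold replicate 1 or 2, the adjusted p-value in Atf4AKO iWAT was between 0.0720 and 0.108. With a lymphocyte score as a covariate the rise in Atf4WT iWAT was 4.04, and without both libraries that hold muscle markers it was 2.15 (limma adjusted p = 0.0347).

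After cold exposure the ratio of the Atf4AKO to the Atf4WT mean of Fgf21 was 0.503, and the difference was -0.85 on the log2 scale (95% interval -2.04 to 0.34, limma adjusted p = 0.593). It was -0.43 without Atf4WT cold replicate 1, the highest library, and -1.31 without Atf4WT cold replicate 2, the lowest of that group. The 3 Atf4AKO libraries were within or below the range of the Atf4WT libraries. Neighbours in the order of the means overlapped within each temperature and not between the temperatures. The response to cold of Atf4AKO minus that of Atf4WT was -0.83 (95% interval -2.51 to 0.86, limma adjusted p = 0.996), an interval that includes 0 as well as a much smaller response in Atf4AKO iWAT. With the lymphocyte score as a covariate these 2 values were -2.55 (limma adjusted p = 0.99945) and -2.47 (limma adjusted p = 0.931).

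Gdf15, the other hormone gene, had 8.27, 6.74 and 6.49 normalized counts in the Atf4WT RT replicates and 5.58, 10.95 and 10.2 in the Atf4AKO RT replicates. After cold exposure it had 43.1, 17.9 and 15.1 in Atf4WT and 68.0, 14.7 and 8.60 in Atf4AKO iWAT. Replicate 0 was the high library in both cold-exposed groups, and in Atf4AKO iWAT the lowest cold-exposed library lay below 2 of the RT libraries. The SD of cold-exposed Atf4AKO iWAT, 32.7, exceeded its mean of 30.5 (n = 3). The high Atf4AKO library had 32029 summed counts of macrophage markers (11 of 12 listed, without Cd68), within the range of 26973 to 49939 in Atf4AKO iWAT at RT, and 154 of muscle markers. The part of either in its Gdf15 level was not tested.

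The means of Gdf15 in order were 7.17 ± 0.964 (SD, n = 3) in Atf4WT RT, 8.91 ± 2.91 in Atf4AKO RT, 25.4 ± 15.4 in Atf4WT cold and 30.5 ± 32.7 in Atf4AKO cold. Here too neighbours in the order overlapped within each temperature and not between them. In Atf4WT iWAT the cold-exposed libraries did not overlap the RT libraries, and the log2 difference was 1.55 (95% interval 0.10 to 2.996, unadjusted p = 0.0382, limma adjusted p = 0.0945). In Atf4AKO iWAT it was 1.19 (95% interval -0.26 to 2.64, limma adjusted p = 0.207), and 0.36 without Atf4AKO cold replicate 0, the high library. Averaged over both genotypes the cold effect on Gdf15 was 1.37 (95% interval 0.34 to 2.39, limma adjusted p = 0.0330). An exact permutation test within genotypes gave p = 0.015 for the same effect (two-sided, 400 arrangements, smallest possible p 0.005). The limma call was lost without Atf4WT RT replicate 0, 1 or 2, Atf4AKO RT replicate 0 or Atf4WT cold replicate 0, with adjusted p-values of 0.0517 to 0.0761, and with the lymphocyte score, where the adjusted p-value was 0.0797. Without both libraries that hold muscle markers it was 0.109.

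Between the genotypes Gdf15 differed by 0.24 at RT (95% interval -1.21 to 1.69) and by -0.12 after cold exposure (95% interval -1.57 to 1.33). The sign after cold exposure depends on the scale, since the ratio of the means was 1.20 and the log2 difference was 0.27 with edgeR. These intervals leave room for more than a 2-fold difference in either direction, so a genotype effect on Gdf15 was not detectable at this depth and replicate number.

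Klb encodes the coreceptor that gives the receptor complex its affinity for FGF21. Its normalized counts were 1385, 1645 and 1287 in the Atf4WT RT replicates and 1641, 1377 and 1374 in the Atf4AKO RT replicates. After cold exposure they were 2846, 2770 and 2837 in Atf4WT and 3580, 2985 and 3363 in Atf4AKO iWAT. Each cold-exposed library lay above each RT library, and after cold exposure each Atf4AKO library lay above each Atf4WT library. The means were 1439 ± 185 (SD, n = 3) in Atf4WT RT, 1464 ± 153 in Atf4AKO RT, 2818 ± 42.0 in Atf4WT cold and 3309 ± 301 in Atf4AKO cold.

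Cold exposure raised Klb by 0.98 on the log2 scale in Atf4WT iWAT (standard error 0.11, 95% interval 0.74 to 1.21, limma adjusted p = 0.000146). The rise in Atf4AKO iWAT was 1.18 (95% interval 0.94 to 1.41, limma adjusted p = 6.78e-05). These were folds of 1.97 and 2.26, and the log2 difference stood at the 93.9 and 98.1 percentiles of all tested genes. The genotypes differed by 0.027 at RT (95% interval -0.21 to 0.26) and by 0.23 after cold exposure (95% interval -0.0075 to 0.46, unadjusted p = 0.0565, limma adjusted p = 0.439). Of all tested genes, 8.68% were higher in Atf4AKO without overlap after cold exposure, as Klb was. The cold responses differed by 0.20 (95% interval -0.13 to 0.53, limma adjusted p = 0.989). With the lymphocyte score as a covariate the difference after cold exposure was 0.14 and that of the responses 0.12. The summed white adipocyte markers overlapped between RT and cold exposure in each genotype. For the averaged cold effect 2 of these 12 markers were called higher and 2 lower, against 44.8% of all tested genes called. Their part in the level of Klb was not tested.

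Fgfr1, the receptor kinase gene, moved the other way. It had 8966, 8238 and 8872 normalized counts in the Atf4WT RT replicates and 8813, 7855 and 8260 in the Atf4AKO RT replicates. After cold exposure it had 5721, 4322 and 3920 in Atf4WT and 5403, 5206 and 6133 in Atf4AKO iWAT. All cold-exposed libraries lay below all RT libraries, and the genotypes overlapped at both temperatures. The means in order were 4654 ± 945 (SD, n = 3) in Atf4WT cold, 5581 ± 488 in Atf4AKO cold, 8309 ± 481 in Atf4AKO RT and 8692 ± 396 in Atf4WT RT.

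Fgfr1 fell by 0.92 on the log2 scale with cold exposure in Atf4WT iWAT (standard error 0.13, 95% interval -1.19 to -0.64, limma adjusted p = 0.000551). In Atf4AKO iWAT it fell by 0.58 (95% interval -0.85 to -0.30, limma adjusted p = 0.00714), a 1.49-fold decrease. At a threshold of 1.5-fold with an unadjusted p under 0.05 all 4 genes passed with cold in Atf4WT (21.2% of tested genes) and Fgf21 and Klb in Atf4AKO iWAT (17.2%). The difference between the responses was 0.34 (95% interval -0.047 to 0.73, limma adjusted p = 0.811). The genotypes differed by -0.066 at RT and by 0.28 after cold exposure (95% interval 0.0013 to 0.55, unadjusted p = 0.0491, limma adjusted p = 0.423). The latter was 0.44 without Atf4WT cold replicate 0, with a limma adjusted p of 0.0355. In that fit 515 of 13404 tested genes were called between the genotypes after cold exposure, against 4 in the main fit. This replicate is one of those with muscle markers and had the highest Fgfr1 level of its group. It also had the lowest summed T cell markers of its group, 1633 against 10722 and 12543 in replicates 1 and 2. With the lymphocyte score as a covariate the difference after cold exposure was 0.041 and that of the responses 0.11.

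Stromal and fibroblast markers fell beside Fgfr1. All 10 were listed, and their summed level was 197612 to 222579 normalized counts in Atf4WT RT and 182727 to 265205 in Atf4AKO RT, against 54489 to 128230.2 in Atf4WT cold and 59872 to 111773 in Atf4AKO cold, so that the temperatures did not overlap. Their median log2 difference with cold was -1.01 in Atf4WT and -0.94 in Atf4AKO iWAT, with 2 and 4 of the 10 called lower. Of all 13404 tested genes, 2000 and 1479 were called lower in these comparisons. The 8 endothelial markers summed to 23775 to 26012 in Atf4WT RT and 18463 to 23204 in Atf4WT cold, and to 21789 to 24681 and 20103 to 21931 in Atf4AKO iWAT. Their part in the level of Fgfr1 was not tested.

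**Figure D2:**
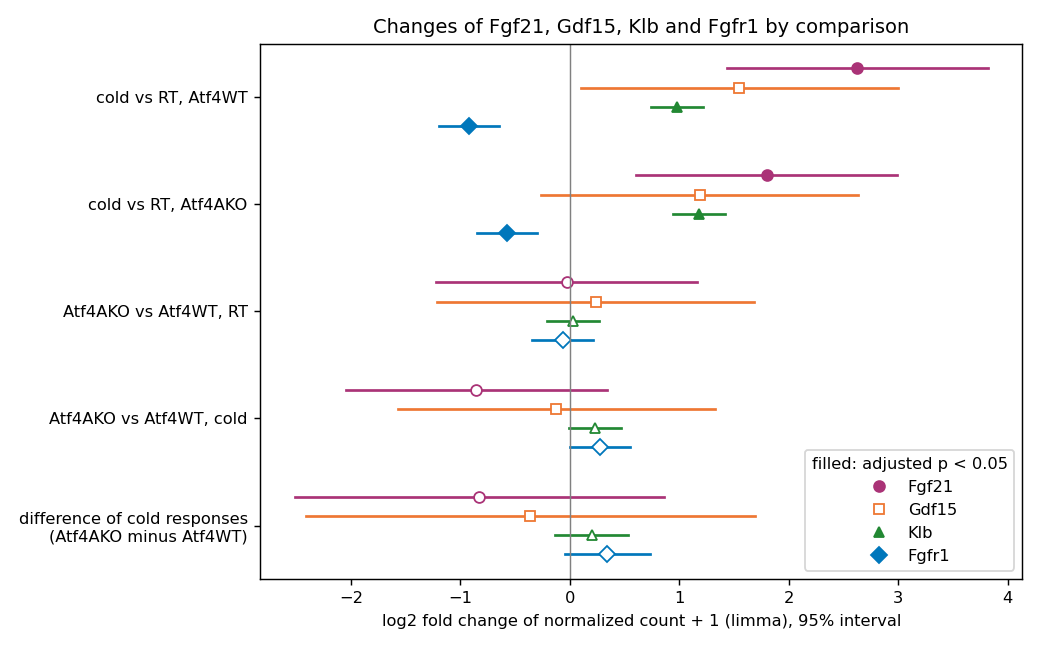
Log2 differences of normalized count + 1 for Fgf21, Gdf15, Klb and Fgfr1 in 5 comparisons (rows), with 95% intervals from limma and filled symbols where the adjusted p-value was under 0.05. The filled symbols are Fgf21, Klb and Fgfr1 in both cold comparisons, and the intervals of Fgf21 and Gdf15 are several times wider than those of Klb and Fgfr1.

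Cold exposure thus changed 3 of the 4 genes in each genotype by limma, also by edgeR and DESeq2 on the recovered reads. Of all 13404 tested genes, 31.9% were called with cold in Atf4WT and 25.9% in Atf4AKO iWAT, so a call alone is common in this comparison. Cold-exposed and RT libraries did not overlap for 4 of the 4 genes in Atf4WT, as for 46.8% of tested genes, and for 3 of 4 in Atf4AKO iWAT, as for 41.7%. Averaged over both genotypes, cold exposure changed all 4 genes, against 44.8% of tested genes, and the exact permutation test within genotypes gave the smallest possible p of 0.005 for Fgf21, Klb and Fgfr1. Among tested genes, the log2 difference of Fgf21 with cold stood at the 99.1 percentile in Atf4WT and the 99.4 percentile in Atf4AKO iWAT, and that of Fgfr1 at the 6.08 and 14.8 percentiles.

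No genotype effect on these genes passed the threshold. At RT limma called 0 of the 4 genes, with 0 at an unadjusted p under 0.05 and 0 by edgeR and by DESeq2, where 0.00746% of tested genes were called by limma. After cold exposure limma called 0 of 4, with 1 (Fgfr1) at an unadjusted p under 0.05 and 0 by edgeR and DESeq2, where 0.0298% of tested genes were called. For the difference between the cold responses limma called 0 of 4, with 0 at an unadjusted p under 0.05 and 0 by the other tools, and limma called 0% of tested genes. Averaged over both temperatures, the genotype effect was -0.44 for Fgf21 (exact permutation p = 0.305), 0.058 for Gdf15 (p = 0.885), 0.13 for Klb (p = 0.14) and 0.11 for Fgfr1 (p = 0.365), where 0.0298% of tested genes were called. The genotypes did not overlap for 0 of the 4 genes at RT (6.3% of tested genes) and for 1, Klb, after cold exposure (16.5%). The comparisons share libraries with each other, so that each is given with its own values. With 3 libraries against 3, the smallest p of an exact permutation test is 0.1.

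Because Klb and Fgfr1 form one receptor complex, the ratio of their normalized counts within each library was also taken, a measure chosen after the values were seen. In whole tissue a change in the mix of cells cannot be told apart from a change within cells. The part of the cell mix in this ratio was not tested. It was 0.155, 0.200 and 0.145 in the Atf4WT RT replicates and 0.186, 0.175 and 0.166 in the Atf4AKO RT replicates. After cold exposure it was 0.498, 0.641 and 0.724 in Atf4WT and 0.663, 0.573 and 0.548 in Atf4AKO iWAT. The temperatures did not overlap, and the genotypes did at both. The cold effect within genotypes was 1.82 on the log2 scale (exact permutation p = 0.005, the smallest possible). This p follows from the opposite changes of the 2 genes, neither of which overlapped between the temperatures, and is no further test. The genotype effect was 0.022 (exact permutation p = 0.85). Per kilobase of exons, which allows levels of 2 genes to be compared, the ratio was 0.236 ± 0.0414 (SD, n = 3) in Atf4WT RT, 0.250 ± 0.0141 in Atf4AKO RT, 0.881 ± 0.162 in Atf4WT cold and 0.844 ± 0.0852 in Atf4AKO cold.

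**Figure D3:**
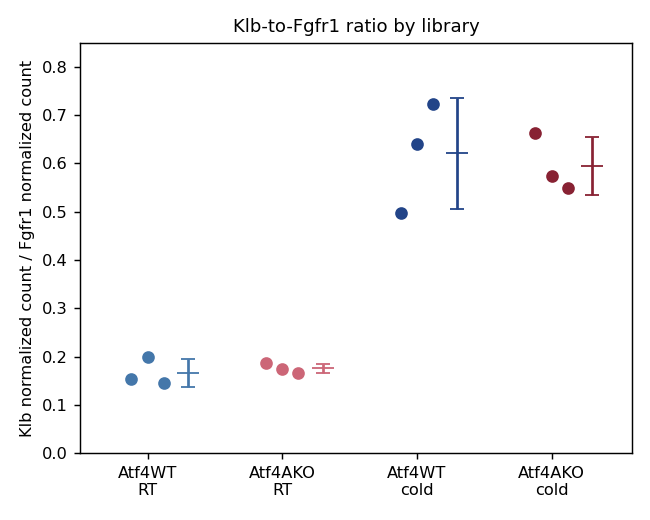
Ratio of the normalized counts of Klb and Fgfr1 in each library (points) with the mean and SD of each group (bars to the right, n = 3). The RT libraries lie between 0.145 and 0.200 and the cold-exposed libraries between 0.498 and 0.724, with overlapping genotypes at each temperature.

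Among the FGF receptor kinases, Fgfr1 was the main one. Per kilobase of exons it made up 93.1% ± 0.816 (SD, n = 3) of the listed receptor kinases Fgfr1, Fgfr2 and Fgfr3 in Atf4WT RT, 92.6% ± 1.82 in Atf4AKO RT, 88.5% ± 2.54 in Atf4WT cold and 88.8% ± 0.223 in Atf4AKO cold. Fgfr4, another kinase of the family, and Kl, the coreceptor of FGF23, are not among the listed genes. Fgfr3 had 102 ± 27.8 and 160 ± 20.97 normalized counts in Atf4WT RT and cold, and its log2 difference was 0.67 (limma adjusted p = 0.101). In Atf4AKO iWAT Fgfr3 rose by 1.06 (limma adjusted p = 0.0214). Fgfrl1, a receptor without a kinase domain, fell by 0.74 in Atf4WT (limma adjusted p = 0.0166) and had a difference of -0.49 in Atf4AKO iWAT (limma adjusted p = 0.0926). Of the 5 tested receptor and coreceptor genes, 1 was higher and 2 were lower with cold in Atf4WT and 2 were higher and 1 lower in Atf4AKO iWAT, Klb and Fgfr1 included. Their median log2 difference was -0.38 and -0.23, against 0.0026 and -0.032 over all tested genes, of which 31.9% and 25.9% were called.

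Within each genotype, Fgf21 was the single ligand gene of its family called higher. Of 22 FGF ligand genes 12 were listed and 10 tested, and with cold in Atf4WT iWAT Fgf21 was called higher while Fgf1, Fgf2, Fgf11, Fgf13 and Fgf14 were called lower. In Atf4AKO iWAT Fgf21 was called higher and Fgf2 and Fgf11 lower. These counts of 6 and 3 of 10 stand beside 31.9% and 25.9% of all tested genes. Averaged over both genotypes Fgf9, a ligand of FGFR3 among others, was also called higher, by 0.91 (limma adjusted p = 0.0447), with differences of 0.56 in Atf4WT and 1.26 in Atf4AKO iWAT that did not pass on their own. Fgf2, a mitogen of adipose progenitors, fell by 1.68 and by 1.70 (limma adjusted p = 0.00408 and 0.00468). Fgf1, an adipocyte growth factor that binds all FGF receptors, fell by 0.96 in Atf4WT (limma adjusted p = 0.0198) and had a difference of -0.073 in Atf4AKO iWAT, and the difference between these responses did not pass (limma adjusted p = 0.663). Fgf11 and Fgf13 belong to the subfamily that acts inside the cell, and fell by 0.87 and 1.46 in Atf4WT iWAT. Fgf10, the ligand of FGFR2b, had 2341 ± 622 normalized counts in Atf4WT RT and a difference of -0.25 (limma adjusted p = 0.394), and Fgf7 one of -0.83 (limma adjusted p = 0.185). Per kilobase of exons, Fgf21 in cold-exposed Atf4WT iWAT, 49.7 ± 28.7 (SD, n = 3), was below Fgf10 at 471 ± 76.1 and Fgf11 at 169 ± 13.0.

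**Figure D4:**
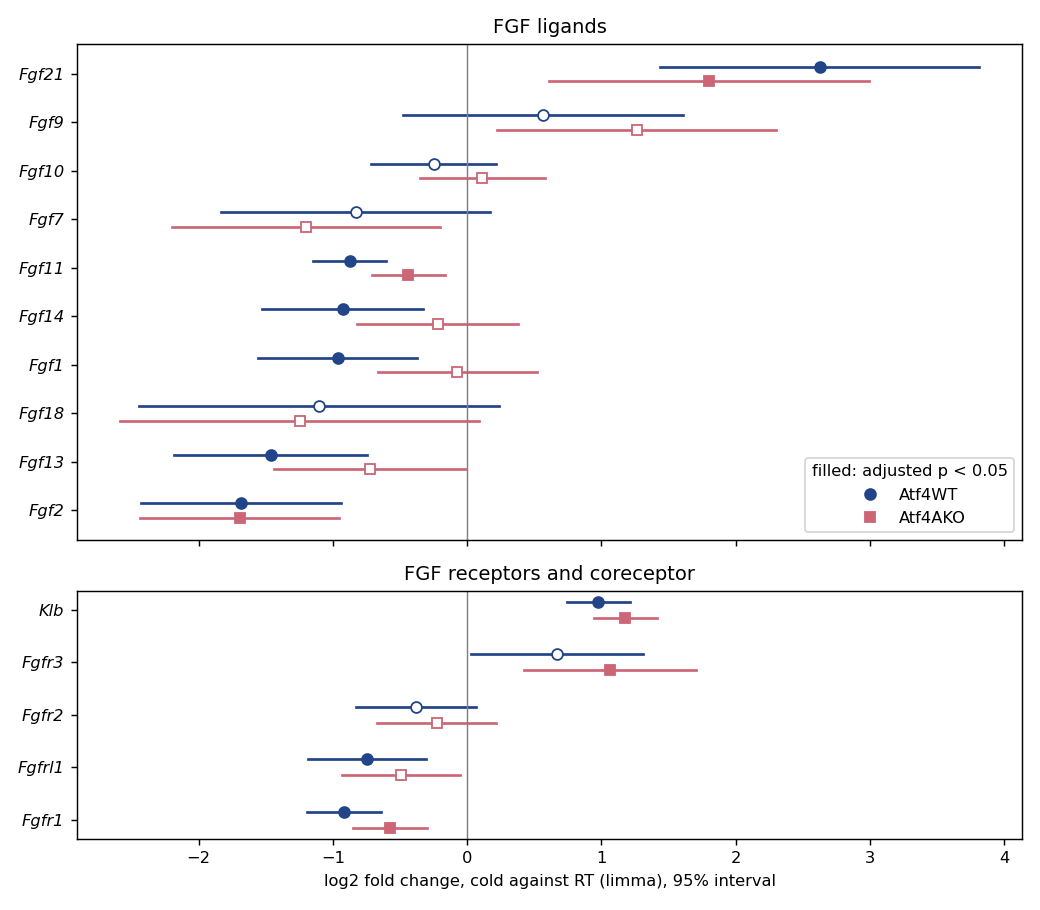
Log2 differences between cold exposure and RT for the 10 tested FGF ligand genes and the 5 tested receptor and coreceptor genes in Atf4WT (circles) and Atf4AKO iWAT (squares), with 95% intervals from limma and filled symbols where the adjusted p-value was under 0.05. Fgf21 lies at 2.63 and 1.80, Klb is the coreceptor gene on the positive side and Fgfr1 is at the lower end of the receptors.

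Genes that carry the signal of the receptor complex were also counted. All 25 genes of the adaptor, RAS, RAF, MEK and ERK list were tested, of which 3 were called higher and 1 lower with cold in Atf4WT iWAT, and 6 higher and 0 lower in Atf4AKO iWAT, with medians of -0.0064 and 0.12. These counts of 4 and 6 of 25 stand beside 31.9% and 25.9% of all tested genes, and edgeR called 7 and 8 and DESeq2 8 and 8. For the averaged cold effect limma called 10 of 25, 6 higher and 4 lower, against 44.8% of all tested genes. Map2k2, which encodes the kinase MEK2, rose by 0.63 and 0.49 (limma adjusted p = 0.00125 and 0.00579). Mapk3, an ERK gene, was the 1 called lower in Atf4WT iWAT. Of the 19 tested response and feedback genes of FGF and ERK signalling, 4 were called higher (Ier2, Dusp5, Dusp6 and Spry3) and 1 lower (Il17rd) in Atf4WT iWAT. Dusp6, a phosphatase that acts on ERK, rose by 0.82 in Atf4WT (limma adjusted p = 0.0207) and had a difference of 0.43 in Atf4AKO iWAT (limma adjusted p = 0.201). In Atf4AKO iWAT limma called 0 of the 19, with 1 at an unadjusted p under 0.05 and 0 by edgeR and by DESeq2. These limma counts of 5 and 0 of 19 stand beside 31.9% and 25.9% of all tested genes. For the difference between the responses limma, edgeR and DESeq2 called 0 of the 19, with 2 at an unadjusted limma p under 0.05. With the lymphocyte score as a covariate limma called 0 of the 19 in Atf4WT iWAT too. Calls over all 13404 tested genes fell from 4273 to 1779 in that fit. The score was higher in each Atf4WT cold library than in any other library, so this fit cannot tell lymphocytes and cold apart in Atf4WT iWAT. The part of lymphocytes in these genes was not otherwise tested.

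Of 11 genes known to respond to FGF21 in fat, 4 were called higher and 2 lower with cold in Atf4WT and 4 higher and 1 lower in Atf4AKO iWAT. Beside these counts, 31.9% and 25.9% of all tested genes were called. The higher genes of this list were in both cases Ucp1, Cidea, Dio2 and Ppargc1a. These are thermogenic genes that β-adrenergic signalling is also known to induce. Ccl11, a chemokine gene, was lower by 1.07 and 1.12 (limma adjusted p = 0.00621 and 0.00591). Ppargc1a, a coactivator gene, rose by 2.01 and 2.57. Adipoq, the adiponectin gene, which FGF21 is known to raise, fell by 0.60 in Atf4WT iWAT (limma adjusted p = 0.0148) and had a difference of -0.36 in Atf4AKO iWAT (limma adjusted p = 0.119).

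Of the genes for cleavage of FGF21 and GDF15, all 7 were tested. Fap, whose product is known to inactivate human FGF21, fell by 0.77 in Atf4WT iWAT (limma adjusted p = 0.0335) and had a difference of -0.57 in Atf4AKO iWAT (limma adjusted p = 0.111). Pcsk6, a proprotein convertase, fell by 1.07 and 0.74, and Pcsk7 rose by 0.34 and 0.32. For GDF15, Gfral is not among the listed genes. Ret fell by 1.09 in Atf4WT iWAT (limma adjusted p = 0.00787) and had a difference of -0.49 in Atf4AKO iWAT (limma adjusted p = 0.172). Gfra4, a coreceptor of another ligand of RET, fell by 1.05 and 1.07 (limma adjusted p = 0.00232 and 0.00250).

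Of 24 genes known to regulate Fgf21 or Gdf15, 8 were called higher and 4 lower with cold in Atf4WT and 10 higher and 3 lower in Atf4AKO iWAT. Beside these counts, 31.9% and 25.9% of all tested genes were called. Atf5, a relative and target of Atf4, rose by 1.13 and 0.83 (limma adjusted p = 0.000106 and 0.000652). Creb3l3, whose product induces Fgf21 in liver, fell by 2.90 and 2.11, and was at 58.9 ± 10.4 normalized counts (SD, n = 3) in Atf4WT RT. Ppara, another inducer of Fgf21 in liver, rose by 1.27 and 1.74 (limma adjusted p = 0.00371 and 0.000847). Tfeb rose by 0.60 and 0.36, and Xbp1 fell by 0.66 and 0.82. After cold exposure 2 of the 24 genes were called between the genotypes, where 0.0298% of all tested genes were called. These were Atf4, the deleted gene, which was lower in Atf4AKO by 2.60, and Atf5, which was lower by 0.97 (limma adjusted p = 0.000644 and 0.0156).

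Fgf21 and Gdf15 were set beside 30 tested genes of a list of ATF4 targets that does not include them. With cold exposure 10 of these were called higher and 3 lower in Atf4WT, and 7 higher and 4 lower in Atf4AKO iWAT, with medians of 0.20 and -0.020. Beside these counts, 31.9% and 25.9% of all tested genes were called. Slc3a2, a subunit of amino acid transporters, rose by 1.00 and 1.22, and Gars, the glycyl-tRNA synthetase gene, by 0.84 and 0.80, while Phgdh, of serine synthesis, fell by 1.30 and 1.21. Between the genotypes after cold exposure the median was -0.10, and the log2 difference of Fgf21 was -0.85 and that of Gdf15 -0.12. Limma called 1 of the 30 (Atf5), with 8 at an unadjusted p under 0.05, 1 by edgeR and 5 by DESeq2, and neither hormone gene was called by any of these. Of all 13404 tested genes, limma called 4, edgeR 3 and DESeq2 590 in this comparison. The count by limma was 0 without Atf4WT cold replicate 1 or Atf4AKO cold replicate 0 or 2, it was 2 without Atf4WT RT replicate 2 and 3 without Atf4WT cold replicate 0, and it was 4 without both libraries that hold muscle markers. In the last 3 of these fits, 146, 515 and 553 of 13404 tested genes were called.

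**Figure D5:**
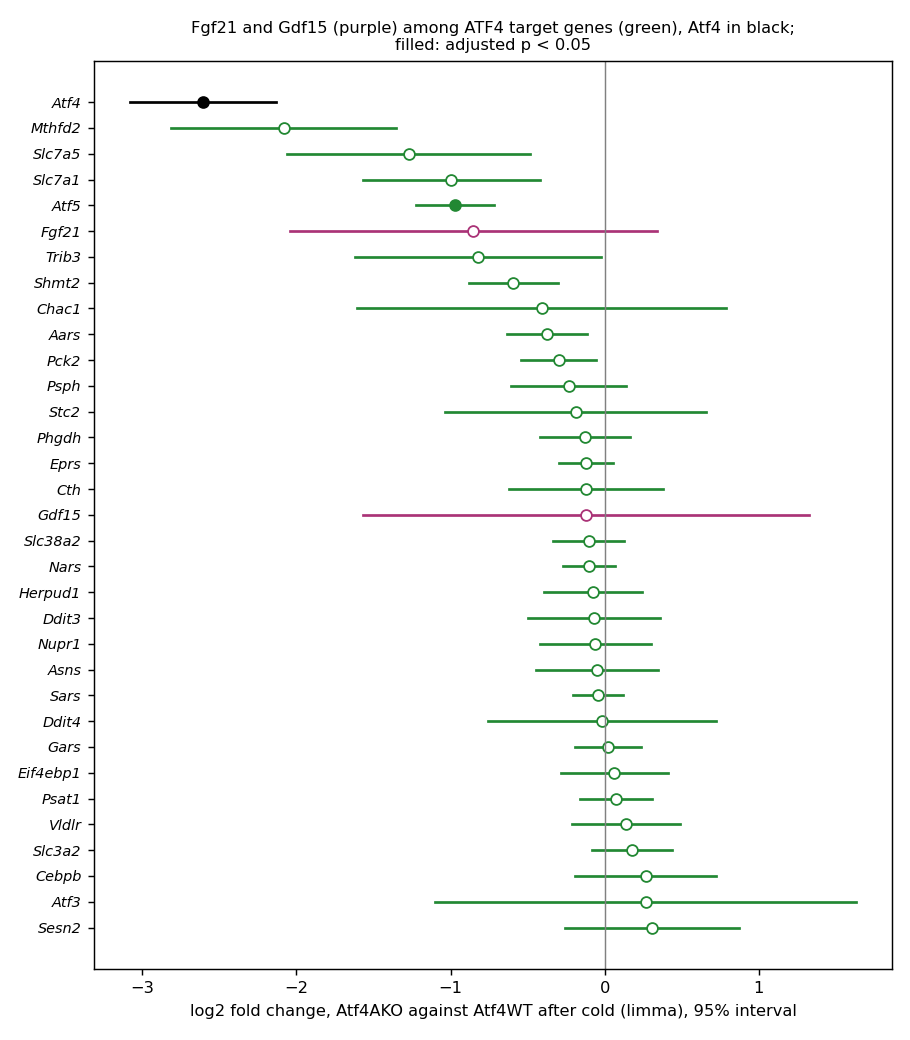
Log2 differences between Atf4AKO and Atf4WT iWAT after cold exposure for 30 ATF4 target genes (green), Fgf21 and Gdf15 (purple) and Atf4 (black), with 95% intervals from limma and filled symbols where the adjusted p-value was under 0.05. Atf4 lies at -2.60 and Atf5 at -0.97, while the intervals of Fgf21 (-2.04 to 0.34) and Gdf15 (-1.57 to 1.33) include 0.

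To describe which genes followed the same course, each gene with a mean of at least 50 was compared with each of the 4 genes by the root mean square difference of the centred log2 profiles over the 12 libraries. Nearest to Klb were Atrn, Plbd1 and Rbm3, the last a cold-inducible RNA-binding protein gene, at 0.120, 0.124 and 0.136, where the spread of Klb itself was 0.556. Nearest to Fgfr1 were Lrp1, Neo1 and Sgce at 0.0832, 0.0924 and 0.104, where its own spread was 0.409. Nearest to Fgf21 were Ppif, Pank1 and Mtfp1 at 0.555, 0.556 and 0.561, with its own spread at 1.28. Nearest to Gdf15 were Tnfrsf12a, Cdk18 and Cdc25a at 0.619, 0.645 and 0.654, against its own spread of 0.993. Fgf21 and Gdf15 themselves have means under 50, and the counting error of their few reads adds to each distance. Their larger distances therefore cannot be compared with those of Klb and Fgfr1.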

How the data were processed

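Polyadenylated RNA of 12 iWAT samples was sequenced, 3 biological replicates in each of 4 groups. The values deposited by the authors are a normalized signal: each gene's reads over a size factor. As the authors describe, reads passed SOAPnuke, STAR aligned them to mm10, featureCounts tallied those with a unique position and pyDESeq2 scaled them; versions and the strand setting of the counting are not given in the sources used here. No listed value stands for fewer than 1 read, and genes with 0 reads in any sample are not analysed here.

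Genes with a mean of at least 10 (13404 of 14159) were tested on log2(value + 1) with limma 3.58.1 in R 4.3.3, with 4 groups in 1 model and a variance trend, and p-values were adjusted by Benjamini-Hochberg over all of them. A gene was called at an adjusted p under 0.05. Log2 differences on this scale understate the change of low genes. Dividing by the value of 1 read gave whole reads for 100% of the values within 0.001 reads, including Atf4AKO RT replicate 1, whose read was worth nearly 1. edgeR 4.0.16 and DESeq2 1.42.0 were run on these reads as alternatives. The precision of low genes is set by their reads, and Poisson intervals at 95% cover counting error only. Group differences of single genes were also tested by exact permutation within strata. Scripts were tested on simulated data.

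The members and the gene lists were chosen with earlier results of these data known. Named are the 4 genes, Atf4, up to 3 called genes of each list with the smallest p, FGF receptors and ligands with a mean of at least 50, and the 3 genes nearest to each of the 4 in profile; genes beyond these were named after their values were seen. One gene that this rule names is not reported here. The lymphocyte score used as a covariate is the mean log2 level of the B and T cell markers. It was 7.06 to 9.50 in Atf4WT cold and 3.86 to 6.91 in the other libraries. Fits with this score therefore cannot well separate lymphocytes from cold exposure in Atf4WT iWAT, or from genotype after cold exposure. Levels per kilobase use merged exons of transcripts with a RefSeq accession. Other alternatives were pseudocounts of 0.5 and 5, no filter and a filter at 50, rescaling to the 75th percentile, only the groups compared, a replicate block, a threshold of 1.5-fold with unadjusted p under 0.05, and leaving out each library. Leaving out both libraries that hold muscle markers and the ratio of Klb to Fgfr1 were added after seeing the data.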

Additional observations from a re-analysis of the deposited data

How the results depend on the processing

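Of 786 alternatives to 38 tested results on Fgf21, Gdf15, Klb and Fgfr1, 739 kept direction and side of the threshold, 12 lost the call, 6 gained it and 29 changed sign. Where no value is given for a cause, the cause was not tested. The cold effects on Klb and, in Atf4WT iWAT, on Fgf21 and Fgfr1 kept their call in all alternatives that gave a value. Fgf21 and Gdf15 lie under a filter at a mean of 50, which gave no value for them.

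Leaving out each library in turn gave, for Fgf21, 1.53 to 2.09 for cold in Atf4AKO, -0.47 to 0.28 for the genotypes at RT, -1.31 to -0.43 for the genotypes after cold, -1.29 to -0.39 for the difference of responses and -0.67 to -0.23 for the averaged genotype effect (exact permutation p = 0.09 to 0.555). For Gdf15 it gave 1.10 to 1.83 for cold in Atf4WT (limma adjusted p = 0.0280 without Atf4AKO cold replicate 0), 0.36 to 1.78 for cold in Atf4AKO, 0.079 to 0.51 for the genotypes at RT, -0.95 to 0.47 for the genotypes after cold, -1.19 to 0.23 for the difference of responses, -0.36 to 0.35 for the averaged genotype effect and 0.95 to 1.67 for the averaged cold effect (limma adjusted p up to 0.0761). For Klb it gave -0.057 to 0.13 for the genotypes at RT, 0.10 to 0.29 for the difference of responses and 0.085 to 0.18 for the averaged genotype effect (exact permutation p = 0.03 without Atf4WT RT replicate 1). For the ratio of Klb to Fgfr1 it gave -0.054 to 0.091 for the averaged genotype effect, and for Fgfr1 0.16 to 0.44 between the genotypes after cold, 0.23 to 0.50 for the difference of responses and 0.049 to 0.18 for the averaged genotype effect.

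Gdf15 in Atf4WT passed with only the 2 groups compared (1.55, limma adjusted p = 0.0480) and at 1.5-fold with an unadjusted p (1.55). Fgfr1 in Atf4AKO did not pass at 1.5-fold (-0.58). The genotype difference of Gdf15 after cold was 0.27 with edgeR, 0.26 with DESeq2 and 0.32 without both libraries that hold muscle markers. Without these libraries the difference of the Gdf15 responses was 0.15, its averaged cold effect 1.12, the genotype difference of Klb at RT -0.049 and that of Fgfr1 after cold 0.44 (limma adjusted p = 0.0462). In that fit 553 of 13404 tested genes were called between the genotypes after cold. With the lymphocyte score the averaged genotype effect was -0.12 for Gdf15 and -0.016 for Fgfr1, and the averaged cold effect on Gdf15 was 1.49.

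Of 990 alternatives to 45 list counts, 73 moved them by over 1.5 times. With the lymphocyte score limma called with cold in Atf4WT 2 FGF ligands, 2 signal transduction genes, 0 response genes, 0 GDF15 receptor genes, 1 protease and 7 regulators, and between the genotypes after cold 0 regulators and 0 ATF4 targets. At 1.5-fold with an unadjusted p the counts for cold in Atf4AKO were 5 ligands, 0 signal transduction genes, 1 response gene, 2 GDF15 receptor genes and 1 protease, and 2 signal transduction genes in Atf4WT. At this threshold the genotypes differed at RT in 2 regulators and 1 ATF4 target and after cold in 1 signal transduction gene, 1 response gene, 3 regulators and 6 ATF4 targets, and the responses in 1 ligand, 1 signal transduction gene, 2 response genes, 1 regulator and 1 ATF4 target. Without both libraries that hold muscle markers the counts were 2 signal transduction and 2 response genes in Atf4WT, 1 response gene in Atf4AKO, 1 receptor gene, 1 signal transduction gene and 4 ATF4 targets between the genotypes after cold, and 1 signal transduction gene for the responses. Rescaling to the 75th percentile gave 7 signal transduction genes in Atf4WT, 10 in Atf4AKO and 1 protease in Atf4AKO. With edgeR 7 signal transduction genes were called in Atf4WT, and with DESeq2 8, with 2 regulators and 1 ATF4 target at RT and 5 ATF4 targets after cold. Without a filter 1 response gene was called in Atf4AKO, and 2 GDF15 receptor genes there with a pseudocount of 5. Leaving out each library gave for cold in Atf4WT 1 to 6 signal transduction and 2 to 6 response genes, and for cold in Atf4AKO 2 to 5 ligands, 3 to 8 signal transduction genes, 0 to 1 response genes, 1 to 3 GDF15 receptor genes, 1 to 2 proteases and 8 to 13 regulators. Between the genotypes it gave 0 to 1 regulators at RT, and after cold 0 to 1 receptor genes, 0 to 1 signal transduction genes, 1 to 2 regulators and 0 to 3 ATF4 targets, and 0 to 1 signal transduction genes for the responses.

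Samples with the same replicate number deviated together in part. The correlations of their deviations were 0.179 to 0.389 for replicate 1 in every pair of groups, but -0.189 to 0.389 over all numbers, and a sample correlated best with its own number in 17 of 36 cases. As not every correlation was over 0.1 and the labels name no shared batch, the samples were not treated as paired. The replicate block changed no call of the 4 genes, and gave 8 response genes in Atf4WT, 2 GDF15 receptor genes in Atf4AKO, 1 regulator at RT and 3 ATF4 targets after cold. Over all tested genes the genotypes after cold differed in 4 genes by limma, 3 by edgeR, 590 by DESeq2, 189 with the block and 0 with the lymphocyte score. Rescaling to the 75th percentile moved the split of higher and lower calls with cold from 2273 and 2000 to 2151 and 2260 in Atf4WT and from 1988 and 1479 to 1699 and 2013 in Atf4AKO. The few reads of Fgf21 and Gdf15 limit what can be seen of them at RT.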
